A study of Mus musculus with 12 samples.

Results

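The 43 genes described here act in apoptosis and other forms of programmed cell death, among 24209 genes counted in the mouse hippocampus. They were taken by gene symbol from a list that was chosen with earlier results of these data known. It holds 13 BCL2 family genes, 7 caspases, 4 inhibitor of apoptosis proteins (IAPs), and death receptors, kinases, mitochondrial factors and p53 genes. All 43 were in the count table, 29 with 1 RefSeq transcript entry and 14 with more than 1.

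In apoptosis through mitochondria, BH3-only proteins bind and block pro-survival BCL2 proteins or activate BAX and BAK, the effectors that open the outer mitochondrial membrane. Cytochrome c then leaves the mitochondria and, with APAF1, activates caspase-9, which in turn activates the executioner caspases that cut up the cell's proteins. Death receptors at the cell surface reach the same executioners through adaptors and caspase-8, IAPs hold caspases in check, and RIPK1, RIPK3 and MLKL drive necroptosis, a form of death without caspases.

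The study asked how blocking single microRNA families in adult neurons changes hippocampal RNA. Male C57BL/6 mice aged 10 weeks received bilateral AAV vectors whose human synapsin promoter limits expression to neurons, and both hippocampi were collected 10 weeks later for RNA sequencing of the whole tissue. GFP-miR-9sp and GFP-miR-34sp vectors carry GFP followed by a sponge of 8 imperfect binding sites that sequesters the microRNA. GFP Ctrl vectors carry GFP without a sponge, so that all 12 mice were injected with a vector encoding GFP. Expression of GFP or sponge in these 12 libraries was not measured here. There were 3 GFP-miR-9sp mice (numbered 17, 23 and 9 in the labels) and 3 GFP Ctrl mice (16, 2 and 8) in the miR-9 experiment, and 3 GFP-miR-34sp mice (13, 18 and 3) and a separate 3 GFP Ctrl mice (10, 4 and 8) in the miR-34 experiment.

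Mature microRNAs of the families that the sponges target (miR-9, and miR-34a and miR-34b) are shown because their seeds (bases 2 to 8, in capitals) determine which transcripts they pair with. The sequence of miR-34c, also of the miR-34 family, was not available here and its seed was not checked. The sequences and genome positions are from RefSeq (GRCm38.p6): miR-9-5p comes from 3 genes, among them Mir9-1 at chr3:88215613-88215635 (+), miR-34a-5p from chr4:150068473-150068494 (+) and miR-34b-5p from chr9:51103610-51103632 (-).
miR-9-5p: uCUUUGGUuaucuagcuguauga
miR-34a-5p: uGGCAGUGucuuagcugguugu
miR-34b-5p: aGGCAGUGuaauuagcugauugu
miR-34a-5p and miR-34b-5p shared the same seed, and miR-9-5p had another.

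The heptamers complementary to these seeds, ACCAAAG for miR-9 and CACTGCC for miR-34, were searched on the transcript strand of the longest annotated 3′ UTR of each gene (GENCODE M1, mm9). An 8mer is the heptamer followed by A. Of the 31 cell death genes tested in the miR-9 experiment, 2 held the miR-9 heptamer (6.45%, against 13.8% of the 10733 tested genes with a 3′ UTR). The miR-34 heptamer was found in 9 of the 30 genes tested in the miR-34 experiment (30%, against 17.4% of 10323 genes). The 8mers were found at shares close to those of all genes. That of miR-9 was in 1 of the 31 genes (3.23%, against 4.44%) and that of miR-34 in 2 of the 30 (6.67%, against 6.08%). The cell death genes had the longer 3′ UTRs, with a median of 1525 bases against 1190 bases over all genes tested in the miR-9 experiment.

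The 8mers are shown with flanking bases, the match in capitals, because they are the longest seed matches that were searched. They lie in the 3′ UTRs of Bcl2l11 (BIM, a BH3-only protein; miR-9; chr2:127986111-127986118, + strand), of Fadd (the adaptor that recruits caspase-8; miR-9 at chr7:151764405-151764412 and miR-34 at chr7:151763436-151763443, - strand) and of Casp2 (an initiator caspase; miR-34; chr6:42232449-42232456, + strand). The miR-34 heptamer of Bid (chr6:120844267-120844273, - strand) is shown because Bid was among the genes with an unadjusted p under 0.05 in the miR-9 experiment.
Bcl2l11, miR-9: cacacacacacACCAAAGAcat
Fadd, miR-9: gcttttgggccACCAAAGAaac
Fadd, miR-34: ccccttgacccCACTGCCAata
Casp2, miR-34: ttcacacttccCACTGCCAaga
Bid, miR-34: cccgatggtgaCACTGCCtcca
The other heptamers of miR-34 lay in Bmf, Bcl2l2, Bax, Casp9 (2 matches), Cycs and Diablo, and the other miR-9 heptamer in Pmaip1. The 3′ UTR of Hrk, 5068 bases long, held neither heptamer, nor did those of Dapk2, Bak1, Birc6 and Tnfrsf10b. A heptamer is a match of letters and was not tested as a site of regulation.

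The libraries of the miR-9 experiment held 17279620 to 24428477 counted reads and those of the miR-34 experiment 11029604 to 16934133, and 3 reads, taken as the smallest detectable signal, were 1.23e-05% to 2.72e-05% of a mouse's reads. Such shares cover counting error only. The labels call the cells hippocampal neurons, and the neuronal markers were abundant, with summed normalised reads of 97587 to 116520 in the miR-9 experiment. The astrocyte list summed to 51152 to 54631 and the microglia list to 13598 to 14856 reads in the same mice, so that the values are those of mixed tissue. Choroid plexus markers differed most between mice. Their sum was 1051 to 2114 reads in GFP-miR-34sp mice and 8661 to 31564 in the GFP Ctrl mice of that experiment, with 8 of 8 tested markers lower and 7 of them at an unadjusted p under 0.05. In the miR-9 experiment the sums overlapped (1229 to 18277 after GFP-miR-9sp and 2690 to 15353 after GFP Ctrl), GFP-miR-9sp mouse 17 and GFP Ctrl mouse 2 being the highest.

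The levels of the genes were compared as RPKM, reads scaled by transcript length and library total, in GFP Ctrl mice and among the 29 genes with 1 RefSeq entry. In the miR-9 experiment the highest was Bcl2l2 (BCL-W, pro-survival), at 68.9 ± 2.64 (SD, n = 3). Cycs, which encodes cytochrome c, followed at 39.8 ± 0.497. Next came Bax at 35.2 ± 1.24, Hrk (Harakiri, a BH3-only protein known mainly from neurons) at 33.6 ± 2.51 and Mcl1 (pro-survival) at 33.1 ± 1.49, whose mice overlapped from one gene to the next. These 5 genes and Xiap, at 31.8 ± 0.305, were also the 6 highest in the miR-34 experiment, where Cycs stood above Bcl2l2 (75.1 ± 1.45 and 69.6 ± 1.79). Cycs has processed pseudogene copies, so that its level is uncertain. Exons of Bcl2l2 overlap Gm20521 on the same strand in the annotation, so that its level may be affected by how shared reads were counted.

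Among the genes with 1 entry, Hrk was thus the BH3-only gene with the highest level, and no mouse's value for the others of its class came near it. In the GFP Ctrl mice of the miR-9 experiment Bid was at 9.38 ± 0.581, Bbc3 (PUMA) at 4.77 ± 0.518, Bmf at 1.16 ± 0.101, Pmaip1 (NOXA) at 0.907 ± 0.0871 and Bik at 0.0866 ± 0.0772 RPKM (SD, n = 3). The 3 caspases with 1 entry and the highest levels were Casp2 at 5.02 ± 0.21, Casp6 at 3.53 ± 0.677 and Casp1 at 3.13 ± 0.454. Mlkl, the executioner of necroptosis, was at 0.197 ± 0.0393.

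**Figure D1:**
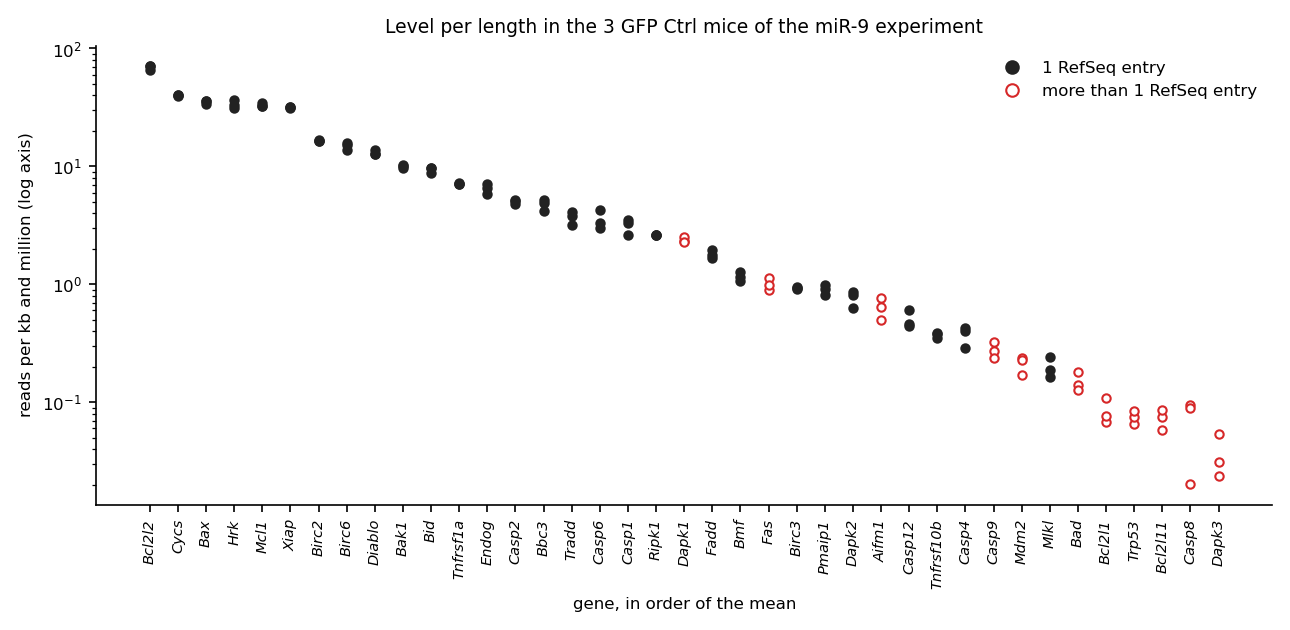
Level in RPKM (log axis) of 39 cell death genes in the 3 GFP Ctrl mice of the miR-9 experiment, ordered by their mean; each point is a mouse, black for genes with 1 RefSeq entry and red for genes with more. Bcl2l2 stands at the left with 68.9, Hrk is the BH3-only gene farthest to the left with 33.6, and the red genes lie mainly at the right; 4 genes with a mouse at 0 are not drawn.

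Of the 14 genes with more than 1 RefSeq entry, Dapk1 had a mean of 280 normalised reads in the GFP Ctrl mice of the miR-9 experiment and the other 13 had 29.4 or fewer. Apaf1 was at 0 reads in all 6 mice of the miR-9 experiment and Ripk3 at 0 in all 12 mice, and Bcl2l1 (BCL-XL) had a mean of 4.09 normalised reads in GFP Ctrl mice. Over all genes, 57.9% of those with 1 entry and 37.2% of those with more than 1 had a mean above 10 reads in the miR-9 experiment, and 26 of 29 and 5 of 14 of the cell death genes. The rule for reads shared by several entries of a gene is not given in the sources used here. The values of these genes are therefore those of the deposited counts and not a measure of how much of the transcript was present.

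The first comparison asked which cell death genes differed after neuronal inhibition of miR-9. A mean above 10 reads was reached by 31 of the 43 genes, and these were tested with the quasi-likelihood test of edgeR, with p adjusted over all 13045 genes tested. The most marked difference was in Hrk, with 0.778 times the reads of GFP Ctrl mice after GFP-miR-9sp. Bid and Dapk2 were also lower at an unadjusted p under 0.05, and no cell death gene was higher. With edgeR 0 of the 31 genes passed an adjusted p of 0.05, as did 0 of all genes (0%), while 3 were lower (9.68%, against 2.26% of all genes) and 0 higher (against 2.47% of all genes) at the unadjusted p. All GFP-miR-9sp mice lay below all GFP Ctrl mice in 6 genes (19.4%, against 5.02% of all genes), namely Pmaip1, Bid, Hrk, Dapk2, Birc3 and Ripk1, and above them in 0 (against 5.21%). The fold change was below 0 in 21 of the 31 genes and in 6557 of the 13045 genes tested. The median was -0.04 on the log2 scale against -0.00 over all genes. Because the cell death genes were chosen with earlier results of these data known, shares above those of all genes are not independent support for a change.

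Hrk (chr5:118619773-118639487, + strand, mm9) encodes a BH3-only protein that binds pro-survival BCL2 proteins. Its normalised reads were 3911, 3376 and 3530 in GFP Ctrl mice 16, 2 and 8, and 2655, 2861 and 2896 in GFP-miR-9sp mice 17, 23 and 9. The highest sponge mouse was thus well below the lowest GFP Ctrl mouse. The means were 2804 ± 129.9 and 3606 ± 275.1 reads (SD, n = 3), and the log2 fold change was -0.36 (SE 0.06, 95% interval -0.49 to -0.23). The unadjusted edgeR p of 9.3e-05 ranked 1 of 13045 genes, and the Benjamini-Hochberg adjusted p was 0.97.

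Whether Hrk passed the adjusted threshold depended on the tool and on the filter. With DESeq2 its adjusted p was 0.000635, and DESeq2 called 2 genes lower and 0 higher in this experiment (0.0153% and 0% of genes). Without the filter on low counts edgeR gave an adjusted p of 0.0332, again with 2 genes lower (0.0105%). The other 11 alternatives gave log2 fold changes of -0.41 to -0.30 with an adjusted p of 0.409 or more. The unadjusted p of Hrk was under 0.05 in 13 of 13 alternatives, also when each of the 6 mice was left out in turn.

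**Figure D2:**
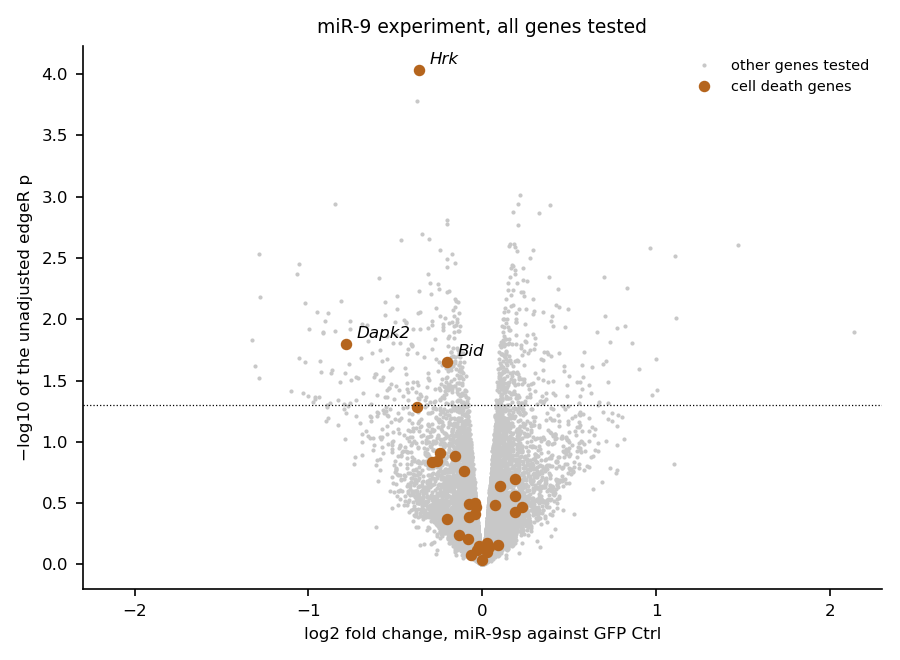
Log2 fold change (GFP-miR-9sp against GFP Ctrl) against −log10 of the unadjusted edgeR p for the 13045 genes tested in the miR-9 experiment; brown points are the 31 cell death genes, grey points the other genes, and the dotted line marks the unadjusted threshold of 0.05. Hrk stands at the top of the plot at -0.36, with Dapk2 (-0.79) and Bid (-0.20) also above the line on the left side.

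Bid (chr6:120841948-120866871, - strand, mm9) links death receptors to mitochondria once caspase-8 has cleaved its protein. GFP Ctrl mice 16, 2 and 8 had 370.2, 365.3 and 329.5 normalised reads and GFP-miR-9sp mice 17, 23 and 9 had 308.1, 320.6 and 299.1. The groups did not overlap, but GFP Ctrl mouse 8 was close to GFP-miR-9sp mouse 23. The log2 fold change was -0.20 (SE 0.08, unadjusted p = 0.0225, adjusted p = 0.97 in edgeR's quasi-likelihood test). The unadjusted p rose to 0.051 to 0.0862 without GFP Ctrl mouse 16 or 2 or GFP-miR-9sp mouse 17 or 9, and was 0.0781 with DESeq2 and 0.0653 in 1 model of 12 mice. An exon of Bid overlaps Bcl2l13 on the other strand in the annotation, and reads of the pair cannot be told apart if strand was not used in the counting.

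Dapk2 (chr9:66006030-66120049, + strand, mm9), a calmodulin-dependent kinase of the death-associated protein kinase family, had the largest fold change of the 31 genes at a low level. It had 22.2, 28.9 and 30.5 normalised reads in GFP Ctrl mice 16, 2 and 8 and 19.5, 16.8 and 10.6 in GFP-miR-9sp mice 17, 23 and 9. The groups came within 3 reads of each other and GFP-miR-9sp mouse 9 was the lowest. The log2 fold change was -0.79 (SE 0.27, unadjusted p = 0.0158, adjusted p = 0.97 in edgeR). Without GFP-miR-9sp mouse 9 it was -0.57 with an unadjusted p of 0.068, and the number of cell death genes lower at an unadjusted p under 0.05 then fell from 3 to 1 (Hrk). DESeq2 also left 1 of the 3, Hrk.

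Of the 3 other genes with no overlap between the groups, Pmaip1 had a log2 fold change of -0.38 (SE 0.17, unadjusted p = 0.0518, adjusted p = 0.97 in edgeR), with 34.8 to 40.2 normalised reads after GFP-miR-9sp and 43.5 to 52.6 after GFP Ctrl. Birc3 (cIAP2, a ubiquitin ligase of TNF receptor complexes) and Ripk1 had -0.26 (SE 0.16) and -0.16 (SE 0.10), each with an unadjusted p above 0.05. The groups of Ripk1 all but touched, with 233.4 reads in GFP-miR-9sp mouse 17 and 233.7 in GFP Ctrl mouse 8. Pmaip1 and Fadd, the tested genes with a miR-9 heptamer, were at -0.38 and -0.25, and neither passed the test. The criterion of the study takes its own unpaired test on scaled reads at an unadjusted p under 0.05, together with group means more than 1.2-fold apart. Recomputed here on reads summed per symbol, it called more genes in each experiment than the study reported. By this recomputed criterion Pmaip1, Hrk and Dapk2 were lower (0.971% of 13083 genes were lower) and no cell death gene was higher (0.466%).

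The remaining BCL2 family genes did not differ by the test. The pro-survival genes Bcl2l2 and Mcl1 had log2 fold changes of -0.04 (95% interval -0.14 to 0.05) and -0.02 (-0.12 to 0.09), and both intervals lay within 1.2-fold. Bax was at 0.03 (-0.10 to 0.15) and Bak1 at -0.11 (-0.27 to 0.05). The BH3-only genes Bmf and Bbc3 were at -0.29 (SE 0.18) and 0.03 (SE 0.10). Of the 5 BH3-only genes tested 4 were below 0 (6557 of 13045 over all genes), with a median of -0.29. Of these, 2 (Hrk and Bid) had an unadjusted edgeR p under 0.05, by which 2.26% of all genes were lower. The class as a whole was not tested, and its genes were chosen with earlier results of these data known. Bcl2l11, Bad, Bik and Bcl2l1 had 10 reads or fewer on average and were not tested.

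Outside the BCL2 family and Dapk2, none of the 21 other genes tested had an unadjusted edgeR p under 0.05. The 5 caspases tested ran from -0.13 (Casp12) to 0.23 (Casp9). Among the mitochondrial genes, Cycs was at -0.04, Endog (a mitochondrial nuclease) at 0.04, Diablo (SMAC, which antagonises IAPs) at 0.07 and Aifm1 at 0.09. The IAP genes Xiap, a direct caspase inhibitor, Birc2 and Birc6 were at -0.00, -0.04 and 0.10, and the intervals of Xiap (-0.08 to 0.08) and Birc2 (-0.15 to 0.06) lay within 1.2-fold. Death receptor genes and adaptors ran from -0.25 (Fadd) to 0.19 (Fas and Tradd), and Mdm2, which encodes the ubiquitin ligase of p53, and Dapk1 were at -0.06 and -0.03. The 12 genes not tested were the 4 of the BCL2 family, Dapk3, Casp8, Casp4, Apaf1, Ripk3, Mlkl, Trp53 and Cdkn1a, which had means of 10.6 normalised reads or fewer in both groups. Among them Trp53, which encodes p53, had 4.64 ± 2.19 reads in the sponge mice against 2.81 ± 0.348 in their controls (SD, n = 3), too few to compare. In 10 of the 31 genes the 95% interval lay within 1.2-fold (32.3%, against 52.9% of all genes). Of the other 21, the interval left out 0 for Hrk, Bid and Dapk2, and the remaining intervals held both 0 and differences of that size.

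Markers of cell types in the same mice were compared beside these values. The neuronal list was above 0 in 9 of 9 genes tested (2 at an unadjusted p under 0.05). Its sums, 106890 to 116520 reads after GFP-miR-9sp and 97587 to 107190 after GFP Ctrl, overlapped. The endothelial and mural list was above 0 in 5 of 5 genes (0 at that limit), with sums of 5547 to 5715 and 5151 to 5709 reads that overlapped. The microglia list was below 0 in 8 of 9 genes (1 at an unadjusted p under 0.05), with sums of 13598 to 14206 and 14321 to 14856 reads that did not overlap. Its markers Cx3cr1 and P2ry12 had means of 2080 and 1570 reads after GFP-miR-9sp and 2172 and 1620 after GFP Ctrl, with groups that overlapped. Tmem119, the 1 marker above 0, had 640.8 and 613.4 reads. Csf1r, the 1 with an unadjusted edgeR p under 0.05, had 3069 and 3276. By contrast Itgam and Ctss, which have 2 RefSeq entries each, were listed at 0. Oligodendrocyte markers were below 0 in 5 of 7 genes (1 at an unadjusted p under 0.05) and thalamus markers in 3 of 3 (0), with sums that overlapped. The part of any of these lists in the lower reads of the cell death genes was not tested. In tissue of mixed cells, fewer cells of a type and less RNA per cell cannot be told apart.

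The second comparison asked the same question for miR-34. Of the 43 genes 30 were tested, with 14 above 0 and 16 below 0 and a median log2 fold change of -0.01 (-0.00 over all genes). None had an adjusted p under 0.05 with edgeR, where 8 of 12492 genes were lower (0.064%) and 0 higher (0%), nor with DESeq2, which called 35 genes lower and 1 higher (0.28% and 0.00801%). At an unadjusted p under 0.05, 1 gene was higher (3.33%, against 2.71% of all genes) and 1 lower (3.33%, against 3.72%), shares close to those of all genes. These were Birc6 and Tnfrsf10b, which were also the only ones of the 30 without overlap between the groups (3.33% in each direction, against 5.8% higher and 5.76% lower of all genes). By the criterion of the study as recomputed here 1 gene, Tnfrsf10b, was lower (1.21% of genes were) and 0 were higher (0.784%).

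Birc6 (chr17:74927635-75103113, + strand, mm9) encodes BRUCE, a very large IAP that also conjugates ubiquitin. It had 3107, 3101 and 3262 normalised reads in GFP Ctrl mice 10, 4 and 8 and 3331, 3466 and 3427 in GFP-miR-34sp mice 13, 18 and 3. All sponge mice were higher, by a small margin. The log2 fold change was 0.11 (SE 0.04, unadjusted p = 0.0118, adjusted p = 0.617 in edgeR), and the unadjusted p stayed under 0.05 in 12 of 13 alternatives but was 0.122 in 1 model of 12 mice. In the miR-9 experiment Birc6 was at 0.10 (SE 0.08, unadjusted p = 0.229, adjusted p = 0.97 in edgeR). Birc6 shares exon sequence with Gm16978 on the other strand.

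Tnfrsf10b (chr14:70167279-70184210, + strand, mm9), the mouse receptor of the death ligand TRAIL, had few reads. GFP Ctrl mice 10, 4 and 8 had 24.9, 29.6 and 28.9 normalised reads and GFP-miR-34sp mice 13, 18 and 3 had 20.1, 13.5 and 22.3. GFP-miR-34sp mouse 18 was the lowest, and mouse 3 was within 3 reads of GFP Ctrl mouse 10. The log2 fold change was -0.55 (SE 0.24, unadjusted p = 0.0464, adjusted p = 0.769 in edgeR). The unadjusted p was 0.0696 to 0.142 without GFP Ctrl mouse 4 or 8 or GFP-miR-34sp mouse 13 or 18, and the number of genes lower fell from 1 to 0 without 3 of these mice (4, 8 and 18). The choroid plexus markers, 8661 to 31564 reads in these GFP Ctrl mice and 1051 to 2114 after GFP-miR-34sp, moved in the same direction. So did the astrocyte list (8 of 8 genes below 0, 1 at an unadjusted p under 0.05), the endothelial and mural list (5 of 5, 1) and the thalamus list (3 of 3, 1), whose sums overlapped between the groups, and the part of any of these in the value of Tnfrsf10b was not tested.

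Hrk showed no such difference here. Its normalised reads were 2331, 2837 and 2446 in GFP Ctrl mice 10, 4 and 8 and 2549, 2252 and 2936 in GFP-miR-34sp mice 13, 18 and 3. The groups overlapped fully, the sponge mice holding both the lowest and the highest value. The log2 fold change was 0.03 (SE 0.09, 95% interval -0.17 to 0.22).

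The other BH3-only genes were at -0.01 (Bid), 0.00 (Pmaip1), -0.17 (Bmf) and 0.18 (Bbc3), none with an unadjusted edgeR p under 0.05. Bcl2l2, Mcl1, Bax and Bak1 were at 0.03, -0.11, 0.00 and 0.16, of which Bcl2l2 (95% interval -0.06 to 0.11) and Bax (-0.17 to 0.17) lay within 1.2-fold. The caspases ran from -0.34 (Casp12) to 0.09 (Casp9), and the mitochondrial genes from -0.52 (Aifm1, SE 0.35) to 0.04 (Cycs). Among death receptor genes and adaptors, Tnfrsf1a, Fas, Fadd and Tradd lay between -0.24 and 0.01. Dapk2 was at 0.22 with a wide interval (-0.58 to 1.02), and the same 12 genes and Mdm2, with 10 reads or fewer on average, were not tested. The interval lay within 1.2-fold in 8 of 30 genes (26.7%, against 49.6% of all genes). Bid, Bmf, Bcl2l2, Bax, Casp2, Casp9, Cycs, Diablo and Fadd, the 9 genes with a miR-34 heptamer, had log2 fold changes of -0.17 to 0.09 and none passed the test.

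**Figure D3:**
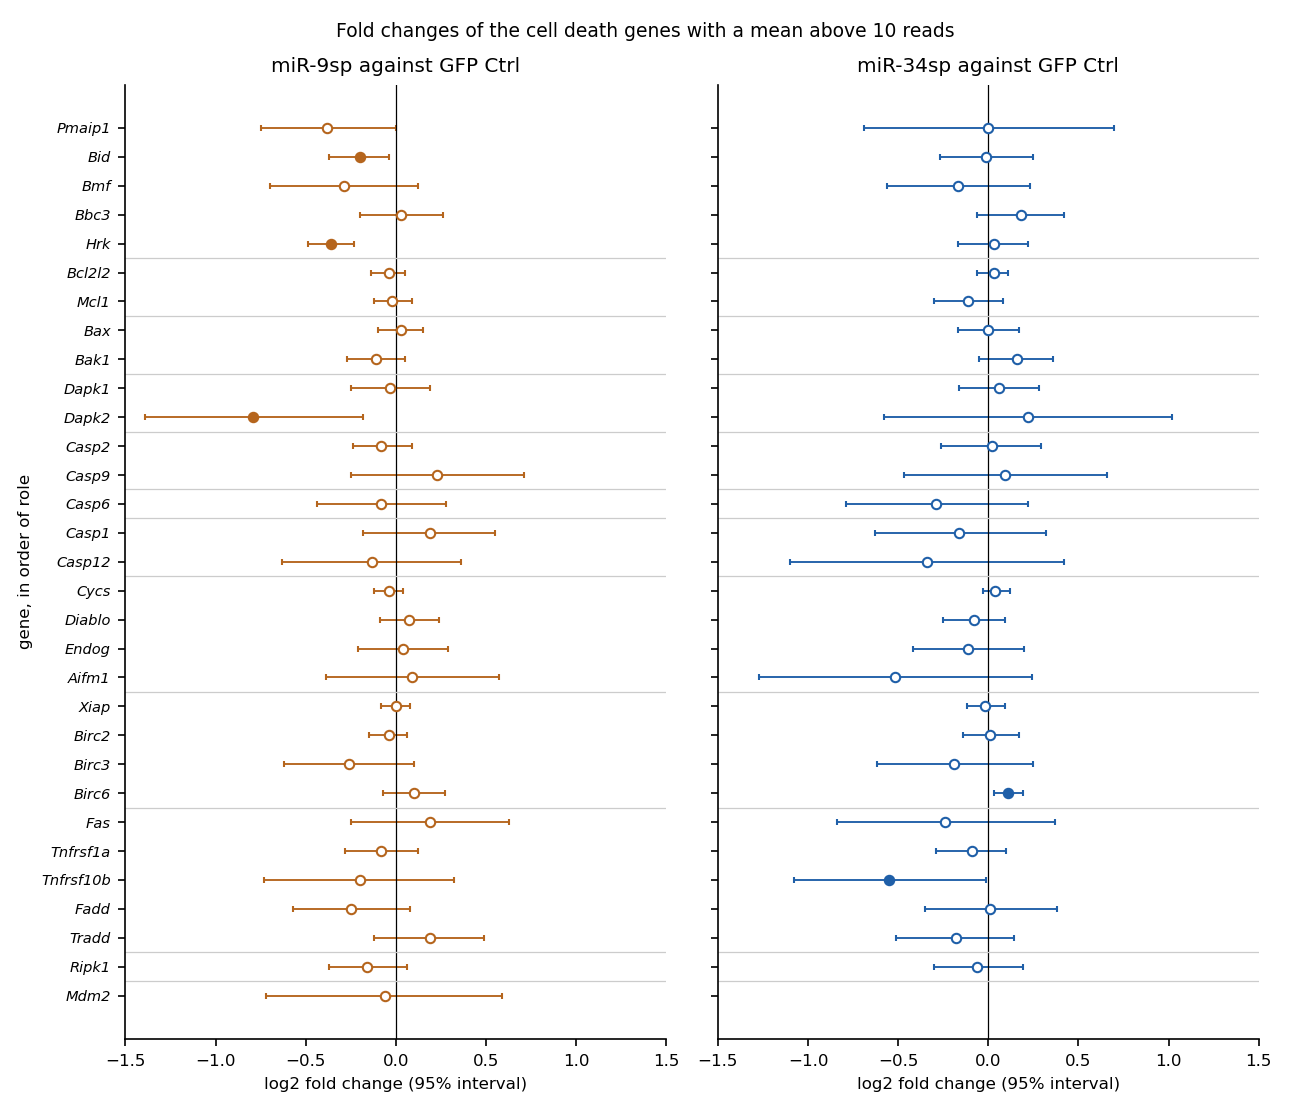
Log2 fold change with its 95% interval (edgeR) of each cell death gene with a mean above 10 reads, in order of role with lines between roles, for GFP-miR-9sp (left) and GFP-miR-34sp (right) against the 3 GFP Ctrl mice of each experiment; filled points have an unadjusted p under 0.05. On the left Bid, Hrk and Dapk2 are filled and lie below 0, on the right Birc6 lies above 0 and Tnfrsf10b below 0, and the pro-survival genes lie close to 0 on both sides.

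The difference between the effects of the sponges was tested in 1 model of all 12 mice, each sponge against its own GFP Ctrl mice, over 12835 genes. Of 31 cell death genes, 3 had a larger value in the miR-34 experiment at an unadjusted p under 0.05 (9.68%, against 2.55% of all genes) and 0 a smaller one (against 3.55%), and neither these nor any other gene (0%) passed an adjusted p of 0.05 with edgeR. These shares too are those of genes chosen with earlier results of these data known. For Hrk the difference was 0.39 (SE 0.12, 95% interval 0.13 to 0.65, unadjusted p = 0.00663, adjusted p = 0.704 in edgeR), and its unadjusted p was under 0.05 in 17 of 17 alternatives.

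Dapk2 differed by 1.00 (SE 0.46, unadjusted p = 0.0461, adjusted p = 0.795 in edgeR), with 6.71, 17.8 and 13.3 normalised reads in GFP Ctrl mice 10, 4 and 8 and 13.9, 11.3 and 17.4 in GFP-miR-34sp mice 13, 18 and 3. The latter groups overlapped and GFP Ctrl mouse 10 stood lowest. Without that mouse the difference was 0.67, with an unadjusted p of 0.14, and leaving out any of 7 other mice also took the unadjusted p over 0.05, up to 0.116.

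Bak1 (chr17:27156755-27165954, - strand, mm9) moved in opposite directions without passing the test in either experiment. It had 408, 390.5 and 404.3 normalised reads in GFP Ctrl mice 16, 2 and 8, against 374.6, 344.6 and 397.4 in GFP-miR-9sp mice 17, 23 and 9. In the miR-34 experiment it had 193.7, 220.4 and 217.5 reads in GFP Ctrl mice 10, 4 and 8, against 227.8, 218.3 and 255.6 in GFP-miR-34sp mice 13, 18 and 3. The groups overlapped in both experiments. The difference between the effects was 0.26 (SE 0.12, unadjusted p = 0.0426, adjusted p = 0.795 in edgeR), and its unadjusted p was 0.0583 to 0.126 without any of 6 mice. Bak1 shares exon sequence with Ggnbp1 on the other strand. DESeq2 left Hrk alone of the 3 genes at an unadjusted p under 0.05.

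**Figure D4:**
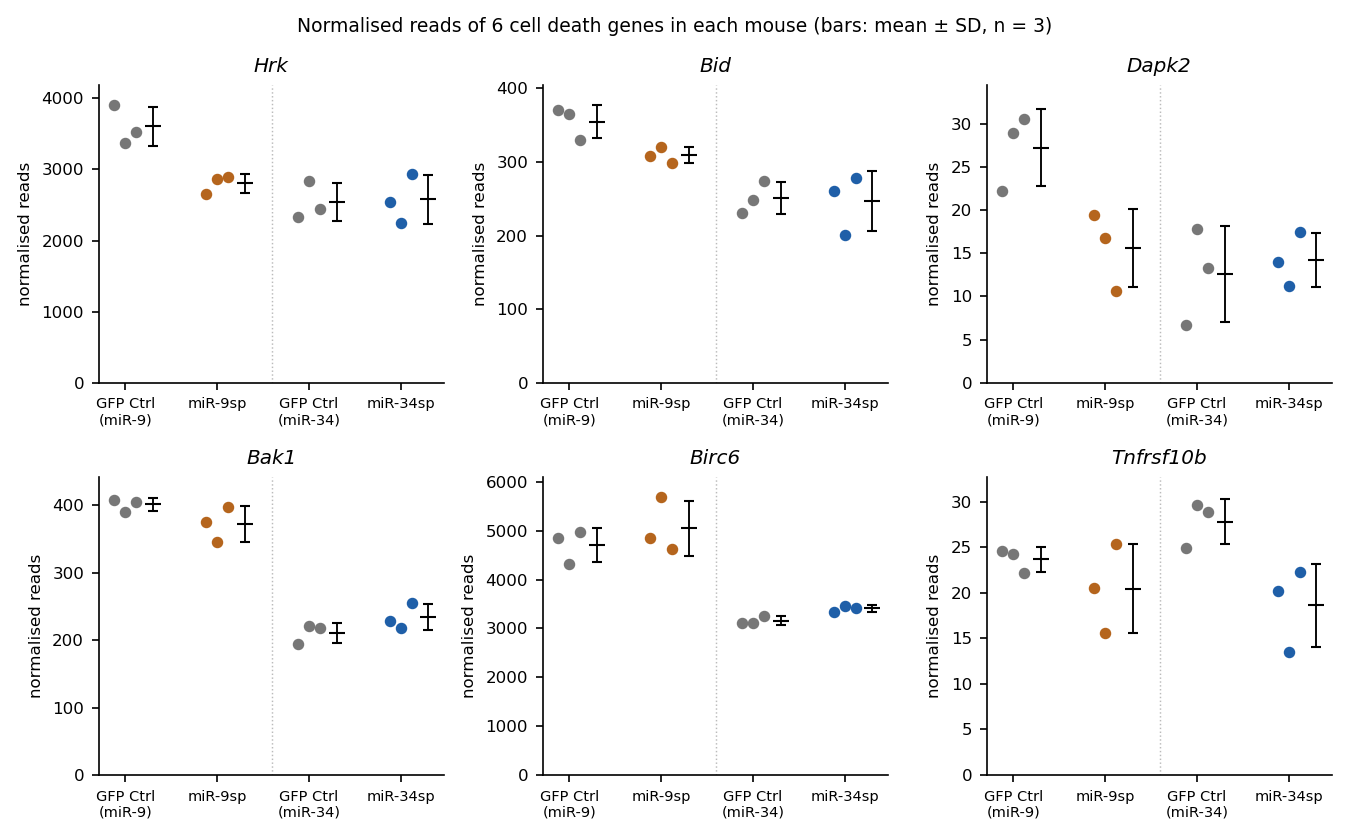
Normalised reads of the 6 cell death genes with an unadjusted edgeR p under 0.05 in an experiment or in the difference between experiments; each point is a mouse, the bars are mean ± SD (n = 3), and values are scaled within each experiment, so that levels are not compared across the dotted line. The GFP-miR-9sp mice lie below all GFP Ctrl mice for Hrk (2655 to 2896 against 3376 to 3911), Bid and Dapk2, and the GFP-miR-34sp mice above them for Birc6 and below them for Tnfrsf10b.

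Other genes of the same pathways were taken from a list of 82 further BCL2 family genes and regulators, caspases and substrates, IAPs, death receptor and p53 network genes. In the miR-9 experiment 57 were tested, of which 1 was higher (1.75%, against 2.47% of all genes) and 2 lower (3.51%, against 2.26%) at an unadjusted edgeR p under 0.05, shares close to those of all genes. Bok, a BCL2 relative of the effector type, was at 0.38 (SE 0.15), although its mice overlapped. Gsdmd, whose protein forms the pores of pyroptosis, was at -0.50 (SE 0.17) and Traf6, a ubiquitin ligase of immune receptor signalling, at -0.11 (SE 0.05), both without overlap. The adjusted p of each of the 3 was 0.97 in edgeR. The median over the 57 genes was 0.00, and Bcl2 itself was at -0.10 (95% interval -0.26 to 0.07).

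In the miR-34 experiment 58 of the 82 genes were tested, 2 higher (3.45%, against 2.71% of all genes) and 5 lower (8.62%, against 3.72%) at an unadjusted edgeR p under 0.05. The lower ones were Perp, a membrane protein induced by p53 (-0.76, SE 0.20), Ngfr, the neurotrophin receptor p75 (-0.66, SE 0.23), Bag3, a co-chaperone (-0.31, SE 0.10), Sesn3, a stress-induced regulator of mTORC1 (-0.15, SE 0.06), and Tigar, a p53 target in sugar metabolism (-0.13, SE 0.05). Naip5, a sensor of bacterial flagellin with near-identical paralogs, was at 0.52 (SE 0.21) and Zmat3, an RNA-binding p53 target, at 0.10 (SE 0.04). Adjusted p-values ran from 0.43 upwards, and the same lower marker lists stood beside these values, their part not tested. By the test of the difference between the sponges, Perp (-0.80, SE 0.26), Bok (-0.52, SE 0.19) and Tigar (-0.24, SE 0.09) had an unadjusted edgeR p under 0.05 in the negative direction and Naip5 (0.66, SE 0.28) and Htra2, a mitochondrial protease (0.22, SE 0.10), in the positive, each with an adjusted p of 0.71 or more; these were 3 (5.17%) and 2 (3.45%) of the 58 genes, against 3.55% and 2.55% of all genes.

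**Figure D5:**
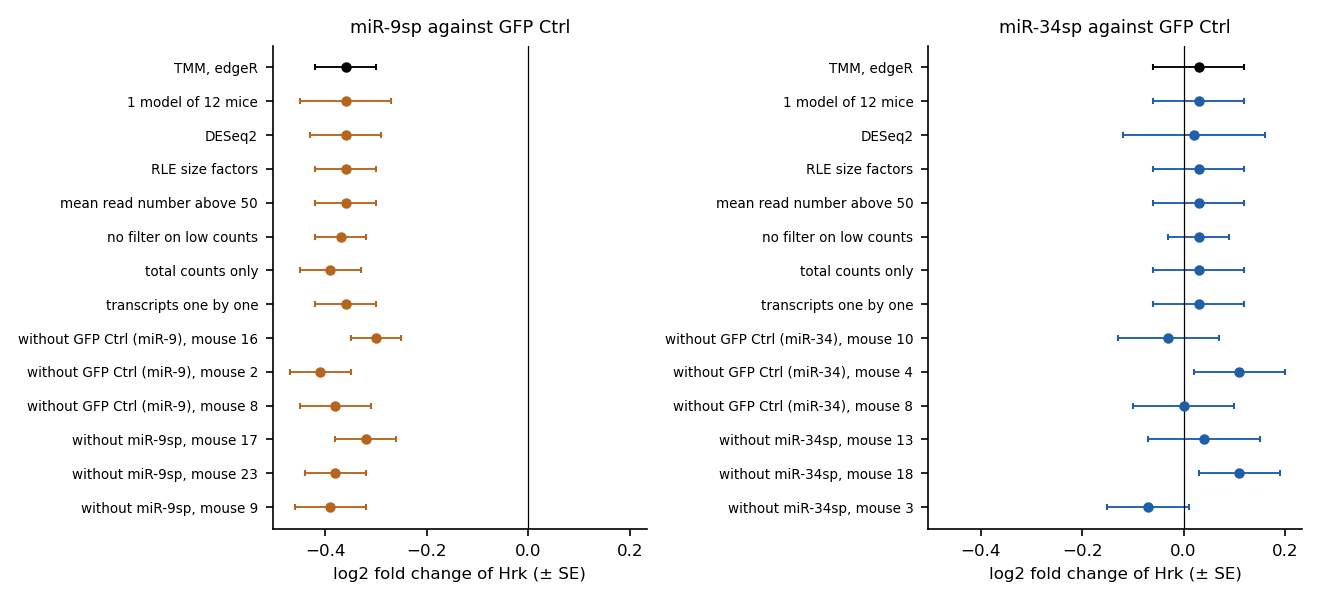
Log2 fold change of Hrk (± SE) for GFP-miR-9sp (left) and GFP-miR-34sp (right) against GFP Ctrl under each way of processing, with TMM scaling and edgeR in black and the others in colour. On the left every value lies between -0.41 and -0.30, and on the right the values lie on both sides of 0, from -0.07 to 0.11.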

How the data were processed

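Hippocampal RNA of 12 mice was sequenced by the authors as single end reads. The deposited values are raw counts per RefSeq transcript and mouse, with the length of each entry, and carry no scaling. The methods state mapping to mm9 and poly-A enrichment. The submitters' processing notes name STAR and mm10, and column labels of the miR-9 experiment contain "totRNA", so that build and preparation are uncertain. Groups came from the sample labels. GFP Ctrl mice whose labels name no experiment were placed with miR-9, since the methods describe 3 control mice in each.

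Of 32850 entries 98.7% matched a gene symbol, and counts were summed per symbol. Genes whose scaled reads averaged above 10 over the fitted mice were tested by edgeR 4.0.16 in R 4.3.3 (quasi-likelihood, TMM), with Benjamini-Hochberg adjustment over all genes tested. Normalised reads are scaled to the mean effective library of the experiment. The biological coefficient of variation was 0.0613 (miR-9) and 0.0516 (miR-34). Every mouse differed from the others of its group by more than counting noise. Intervals are 95%. In simulated counts 77.5% (miR-9) and 66.5% (miR-34) of 200 genes changed 1.5-fold were recovered. The simulation gave each gene the dispersion of the fitted trend, without the variation of single genes around it. These shares are therefore not the power of the real comparisons, nor do they cover differences below 1.5-fold.

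The cell death genes and the wider list were chosen with earlier results of these data known. Values of every mouse were given for cell death genes with an unadjusted p under 0.05 in a comparison, and genes of the wider list were named by the same limit. Alternatives were DESeq2 1.42.0, other size factors, filters and units, 1 model of 12 mice, the criterion of the study and leaving out each mouse. A search for BH3 motifs in proteins was not run, and data on miR-124 were not used here. Figures used matplotlib 3.10.9.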

Additional observations from a re-analysis of the deposited data

Results flagged for a closer look

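For 3 cell death genes the effects of the sponges differed between the experiments at an unadjusted p under 0.05 in edgeR's test of the interaction, and none passed the adjusted threshold. The effect of GFP-miR-34sp minus that of GFP-miR-9sp was 0.39 on the log2 scale for Hrk (-0.36 after GFP-miR-9sp and 0.03 after GFP-miR-34sp). It was 0.26 for Bak1 (-0.11 and 0.16). It was 1.00 for Dapk2 (-0.79 and 0.22), a gene with means of 12.6 to 27.2 normalised reads per group. The experiments also differed in depth and possibly in library preparation, whose part cannot be told apart from that of the sponge.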

How the results depend on the processing

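No paired analysis was possible because sponge and GFP Ctrl mice of an experiment share no label that pairs them. Of the 180 alternative values of the counts of cell death genes, 161 stayed within 1.5 times the count reported, and 19 did not. The 161 include counts of 0 that stayed at 0, as all counts at the adjusted p did when a mouse was left out. They therefore do not measure how stable the counts above 0 were. With DESeq2, the count lower after GFP-miR-9sp at an unadjusted p under 0.05 was 1 in place of 3, the count lower after GFP-miR-34sp 0 in place of 1, and the count with a positive difference between the sponges 1 in place of 3. At an adjusted p under 0.05, the count lower after GFP-miR-9sp was 1 in place of 0 with DESeq2 and 1 without the filter on low counts, in both Hrk. The count higher after GFP-miR-34sp was 0 in place of 1 in 1 model of 12 mice and by the criterion of the study, and the count lower was 0 with a mean above 50 reads, where Tnfrsf10b was not tested. Leaving out each mouse in turn gave 1 to 4 genes lower after GFP-miR-9sp, 0 to 1 lower after GFP-miR-34sp, and 1 to 4 with a positive and 0 to 1 with a negative difference (Tradd or Casp6). The causes were not tested. The count of 1 with a positive difference, Hrk, came without GFP Ctrl mouse 10 or GFP-miR-34sp mouse 3 of the miR-34 experiment, or GFP Ctrl mouse 8 or GFP-miR-9sp mouse 23 of the miR-9 experiment. The sign turned only when a mouse was left out and only near 0: after GFP-miR-34sp the values were -0.11 to 0.54 for Dapk2, -0.07 to 0.11 for Hrk and -0.10 to 0.11 for Bid, and the difference for Birc6 was -0.05 to 0.10. With total counts alone in place of TMM, the genes at an unadjusted p under 0.05 in the miR-9 experiment were 190 higher and 484 lower in place of 322 and 295, with the median of all genes at -0.022, and those of the difference 560 and 309 in place of 327 and 456. Counting only genes with 1 RefSeq entry, chosen after seeing the data, left the counts at 3, 1 and 1. It could not have changed them, because every gene counted there has 1 entry. Genes near 10 reads, and those with several RefSeq entries, limit what could be seen.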
